A study of Mus musculus with 11 samples.

Results

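The netrin and Slit genes described here are 10 axon guidance genes, the netrin receptors Dcc, Unc5a, Unc5b, Unc5c and Unc5d, the ligand Ntn1, the Slit receptors Robo1 and Robo2 and the ligands Slit1 and Slit2. They were chosen by symbol from the 16527 genes that could be tested, and each is represented by its probe set with the highest mean, from 11 probe sets in all. Each of 11 samples was hybridized to an Affymetrix Mouse Gene 1.0 ST array, and values are log2 RMA values (background-corrected, normalized and summarized over the probes of a probe set). The RNA came from cells sorted by flow cytometry from microdissected dentate gyrus, dorsal and ventral, of mice at postnatal day 35, and was amplified before hybridization. PomcGFP mice (2 arrays) are GFP transgenics for Pro-opiomelanocortin-alpha (Pomc), which encodes a hormone precursor; Pomc reporters are known to mark young granule neurons in the dentate gyrus. In kiTbr2GFP mice (3 arrays) GFP is knocked in to Eomes, the gene of T-brain-2 (Tbr2), known as the T-box factor of intermediate progenitors. The tgTbr2GFP mice (3 arrays) carry GFP on an Eomes BAC transgene. NesGFP mice (3 arrays) are GFP transgenics for Nestin, an intermediate filament gene of neural stem cells. Strain and sex, the number of animals behind an array, and whether kiTbr2GFP cells keep an intact Eomes allele were not given in the sources used here. Separate animals for the arrays within a line are not recorded, so the p-values reflect array-to-array spread only, and that spread may be technical.

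Netrins and Slits are secreted proteins that steer growing axons and migrating cells. Netrin-1 binds DCC, which mainly mediates attraction, and the UNC5 receptors, which mediate repulsion alone or together with DCC and, without ligand, act as dependence receptors that can promote cell death. Slit proteins bind Robo receptors and repel. In the brain both systems are known for guiding commissural axons and for the migration of neuroblasts, and both are also used by blood vessels.

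The genes behind the reporters were set beside the labels. Pomc stood at 7.25 ± 0.04 in PomcGFP (SD, n = 2), 6.77 ± 0.20 in kiTbr2GFP, 6.77 ± 0.28 in tgTbr2GFP and 6.95 ± 0.12 in NesGFP (SD, n = 3 each), a small difference. Eomes, the reporter gene of both Tbr2 lines, stood at 7.52 ± 0.23 in PomcGFP (SD, n = 2), 9.98 ± 0.08 in kiTbr2GFP, 10.18 ± 0.31 in tgTbr2GFP and 8.80 ± 0.38 in NesGFP (SD, n = 3 each). Nes lay between 5.78 and 6.25 on the arrays of the other lines, against 6.91 to 7.63 on NesGFP arrays. The mean log2 value of 9 granule neuron markers was 9.88 to 9.997 in PomcGFP, 8.86 to 9.08 in kiTbr2GFP and 9.12 to 9.37 in tgTbr2GFP, against 8.27 to 8.53 in NesGFP, and so highest in PomcGFP. Single markers differed from this mean, and Dcx, Neurod1 and Calb2 were higher in kiTbr2GFP than in PomcGFP by line mean. Against NesGFP, in limma's test at an adjusted p under 0.05, 8 were higher in PomcGFP and 0 lower. In kiTbr2GFP 4 were higher and 3 lower, and in tgTbr2GFP 4 and 1. The mean log2 value of intermediate progenitor markers (9 genes) was 7.79 to 7.85 in PomcGFP, 8.98 to 9.18 in kiTbr2GFP and 8.56 to 8.88 in tgTbr2GFP, against 7.86 to 8.01 in NesGFP, highest in the Tbr2 lines. Eomes itself is among these markers. By line mean Tac2 was highest in NesGFP (8.43), and Sstr2 was similar in PomcGFP (9.48) and kiTbr2GFP (9.47). Against NesGFP 6 of the 9 passed as higher in each Tbr2 line and 0 as lower. In PomcGFP 1 was higher and 1 lower. Neural stem cell markers (10 genes) averaged 8.37 to 8.43 in PomcGFP, 8.35 to 8.42 in kiTbr2GFP and 8.71 to 8.82 in tgTbr2GFP, against 9.82 to 10.10 in NesGFP. NesGFP arrays also carried more signal of other cell types. In PomcGFP, kiTbr2GFP and tgTbr2GFP each, all 8 tested endothelial markers, all 9 mural markers and all 8 astrocyte markers were lower than in NesGFP in limma's test at an adjusted p under 0.05. Of 8 oligodendrocyte markers 5, 8 and 8 were lower. Of 8 oligodendrocyte precursor markers 6 were lower in each of the lines. In these bulk samples fewer cells of a type and less RNA per cell cannot be told apart. Arrays of a line correlated with each other at r of 0.939 to 0.985 across genes.

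Most calls were for receptors, in comparisons with NesGFP. Tests used limma on all 16527 genes, with Benjamini-Hochberg adjustment, and an adjusted p under 0.05 counted as passing. A moderated F test over the 4 lines passed for 6 of the 10 genes (Dcc, Unc5b, Unc5c, Unc5d, Robo1 and Robo2), while 43.4% of all genes passed it. Of the 10 genes, 6 were higher and 1 lower in PomcGFP than in NesGFP, where 15.9% of all genes were higher and 24.0% lower (39.9% called in either direction). In kiTbr2GFP against NesGFP 3 were higher and 2 lower, with 18.2% and 27.0% of all genes (45.2% in either direction). In tgTbr2GFP against NesGFP 4 were higher and 1 lower, with 15.8% and 25.8% of all genes (41.6% in either direction). The counts for both Tbr2 lines, 5 of 10 each, were close to the share of all genes. The median difference of the 10 genes was 0.65, 0.16 and 0.21 on the log2 scale in these comparisons, against 0.0050, -0.012 and -0.030 for all genes. The 3 comparisons share the NesGFP arrays.

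Among the other lines few of the 10 genes passed. PomcGFP was lower than kiTbr2GFP in Unc5d and higher in Robo1, where 1.98% of all genes were lower and 2.90% higher (4.88% in either direction). None of the 10 passed in limma between PomcGFP and tgTbr2GFP, where 1.37% of all genes did (0.545% higher and 0.823% lower), and 4 had an unadjusted p under 0.05. None passed between kiTbr2GFP and tgTbr2GFP, where 1.12% of all genes did (0.436% higher and 0.684% lower), and 3 had an unadjusted p under 0.05. A p that misses the threshold does not show that levels were equal, and intervals of some of these differences are given with the genes. Between PomcGFP and tgTbr2GFP those given are of Unc5d and Robo2. The others with an unadjusted p under 0.05 were Unc5b (-0.28, interval -0.52 to -0.032) and Slit1 (0.49, interval 0.068 to 0.91).

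**Figure D1:**
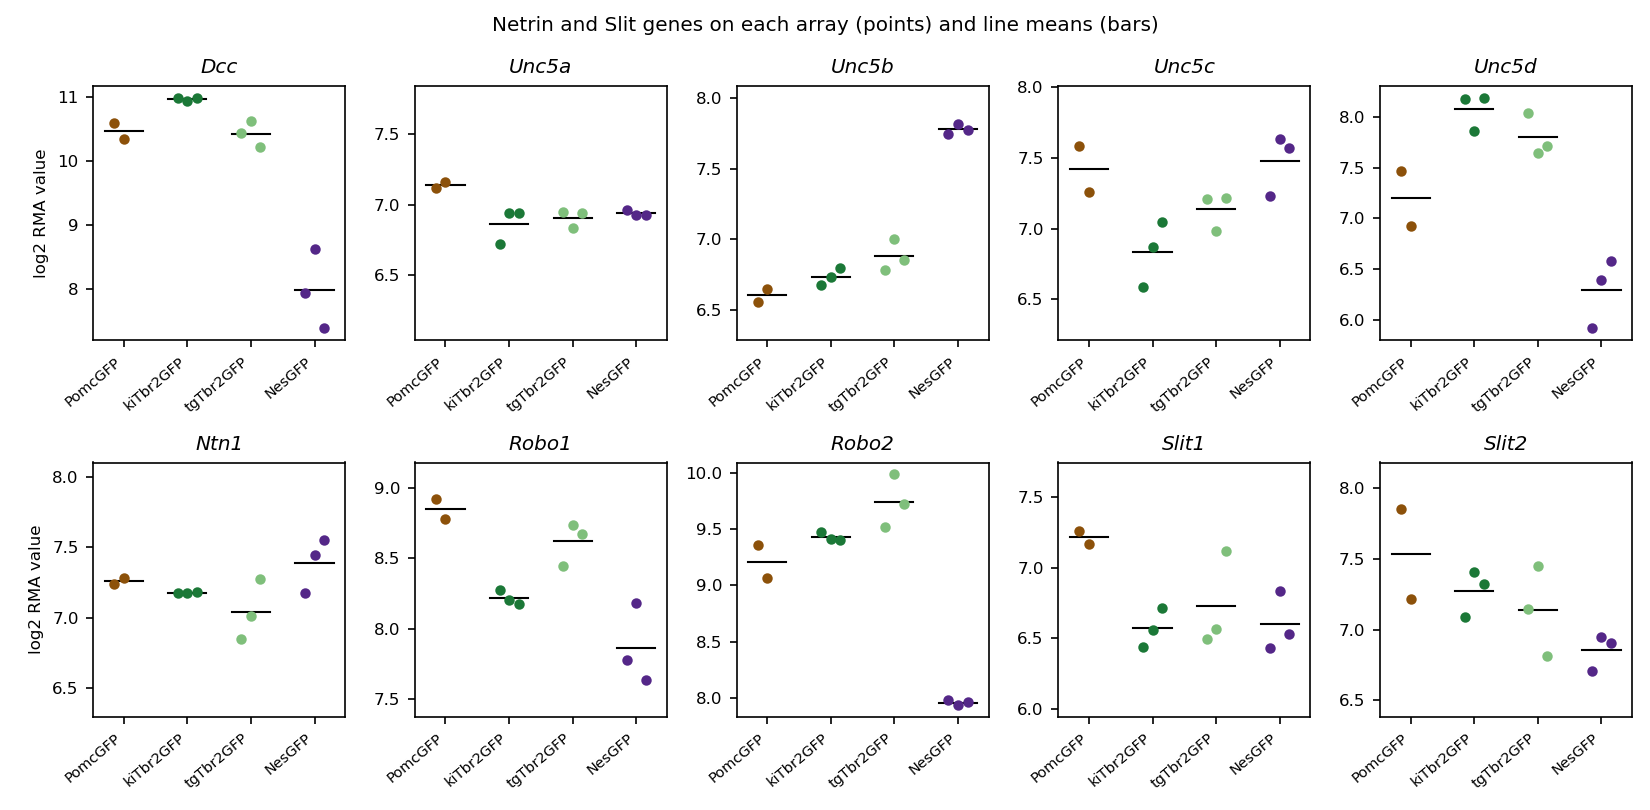
Log2 RMA value (vertical axis, 1 panel a gene) of the 10 netrin and Slit genes on each of the 11 arrays (points), grouped by line along the horizontal axis, with the line mean as a bar. Dcc and Robo2 are lower on all 3 NesGFP arrays than on the other 8, Unc5b is higher on all 3, and Unc5a and Ntn1 overlap between most lines.

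Start sites of 6 of the 10 genes were found in RefSeq's promoter table (GRCm38.p6). The 250 bases before a start site are shown for the 2 Robo receptors, which were both higher in PomcGFP and tgTbr2GFP than in NesGFP, and for Unc5b, which was lower in all 3 lines. Sequences run 5′ to 3′ on the strand of the gene, and capitals mark matches, on either strand, to CANNTG (the E-box that basic helix-loop-helix factors such as Neurod1 bind) or AGGTGT (a T-box core, bound by factors of the family of Tbr2).
Robo1, chr16:72662899-72663148, plus strand: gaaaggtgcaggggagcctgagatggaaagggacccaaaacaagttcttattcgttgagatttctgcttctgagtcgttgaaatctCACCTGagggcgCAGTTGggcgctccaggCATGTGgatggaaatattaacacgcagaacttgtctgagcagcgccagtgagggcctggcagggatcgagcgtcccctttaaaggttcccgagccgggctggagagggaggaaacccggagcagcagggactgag
Robo2, chr16:75447294-75447543, minus strand: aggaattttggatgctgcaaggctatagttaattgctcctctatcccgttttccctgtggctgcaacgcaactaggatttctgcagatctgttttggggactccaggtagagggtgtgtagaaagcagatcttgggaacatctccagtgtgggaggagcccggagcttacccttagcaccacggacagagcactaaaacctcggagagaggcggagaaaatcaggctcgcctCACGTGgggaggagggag
Unc5b, chr10:60831582-60831831, minus strand: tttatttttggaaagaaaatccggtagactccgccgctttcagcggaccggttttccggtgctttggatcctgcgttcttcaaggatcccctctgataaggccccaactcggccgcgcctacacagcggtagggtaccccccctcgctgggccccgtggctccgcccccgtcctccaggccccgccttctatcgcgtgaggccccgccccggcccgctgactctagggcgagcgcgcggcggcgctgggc
The Robo1 window held 3 matches to CANNTG and the Robo2 window 1, close to the start site, while the Unc5b window held none. The Robo1 start site listed lies inside the annotated span of the gene. The other 2 start sites of Robo2 had 1 match each. No match to AGGTGT fell in these windows, and no matches overlapped each other. CANNTG occurred in 66.2% of the 32851 windows of this length given by RefSeq and AGGTGT in 11.8%, so an E-box match is common. The GC content was 56.0% for Robo1, 53.2% for this Robo2 window and 66.8% for Unc5b, against a median of 52.4%. The windows of Unc5a, Unc5c and Slit2, not shown, held no E-box match, although Slit2 was also higher in PomcGFP than in NesGFP. The Unc5c window held 1 match to the T-box core. A match describes letters and not a binding site.

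Dcc, the receptor that mediates attraction to netrin-1, lies on chromosome 18 (71253613 to 72351228, GRCm38.p6) and had the widest differences of the 10 genes. It stood at 10.59 and 10.34 on the PomcGFP arrays. Its values were 10.98, 10.93 and 10.99 in kiTbr2GFP and 10.43, 10.62 and 10.22 in tgTbr2GFP, against 7.95, 8.63 and 7.39 in NesGFP. The NesGFP arrays were spread over more than 1 log2 unit and lay below all others. Dcc was higher than in NesGFP by 2.47 ± 0.27 (SE) in PomcGFP (5.55-fold, adjusted p = 3.85e-05), by 2.98 ± 0.25 in kiTbr2GFP (7.88-fold, adjusted p = 2.61e-06) and by 2.44 ± 0.25 in tgTbr2GFP (5.41-fold, adjusted p = 1.41e-05). By mean level the order was kiTbr2GFP, PomcGFP, tgTbr2GFP and NesGFP. Of the neighbours in this order only tgTbr2GFP and NesGFP differed past the test in the fit of all 4 lines. The kiTbr2GFP arrays all lay above those of PomcGFP and tgTbr2GFP. The difference of PomcGFP from kiTbr2GFP was -0.51 (95% interval -1.11 to 0.10, adjusted p = 0.502) and that of kiTbr2GFP from tgTbr2GFP 0.54 (0.0031 to 1.08, adjusted p = 0.538). With the compared groups alone, PomcGFP was lower than kiTbr2GFP past the test (adjusted p = 0.0391). The fit of all lines shares their spread, which was largest in NesGFP (SD 0.62, against 0.18 in PomcGFP and 0.03 in kiTbr2GFP).

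The 4 UNC5 receptors, which share the netrin ligand, did not move together. Unc5b (chromosome 10, 60762594 to 60831581) was lower outside NesGFP. Its values were 6.56 and 6.65 in PomcGFP, 6.67, 6.73 and 6.80 in kiTbr2GFP and 6.78, 6.998 and 6.85 in tgTbr2GFP, against 7.75, 7.81 and 7.77 in NesGFP. The NesGFP arrays lay within 0.1 of each other and above all others. The difference from NesGFP was -1.18 ± 0.11 (SE) in PomcGFP (adjusted p = 1.17e-05), -1.04 ± 0.10 in kiTbr2GFP (adjusted p = 7.44e-06) and -0.90 ± 0.10 in tgTbr2GFP (adjusted p = 2.62e-05). Unc5b is known in endothelial cells as a receptor of vessel guidance, and endothelial markers were also lower outside NesGFP. So were the mural and astrocyte markers, and most neural stem cell, oligodendrocyte and oligodendrocyte precursor markers. The mean log2 value of the 8 tested endothelial markers was 6.83 and 7.25 on the PomcGFP arrays, 6.15 to 6.45 in kiTbr2GFP and 6.25 to 7.17 in tgTbr2GFP, against 9.80 to 9.97 in NesGFP. Of the 8 markers, Emcn, Slco1a4 and Tek were under the 25th percentile of the array on all 3 kiTbr2GFP arrays and 2 of 3 tgTbr2GFP arrays, and Emcn on 1 PomcGFP array, while the other 5 (Cdh5, Cldn5, Esam, Flt1 and Pecam1) were above it on all 11 arrays. Outside NesGFP the orders differed. Unc5b was lowest in PomcGFP (mean 6.60, against 6.73 in kiTbr2GFP and 6.88 in tgTbr2GFP). The endothelial mean was highest in PomcGFP (7.04, against 6.33 in kiTbr2GFP and 6.66 in tgTbr2GFP). The part of endothelial RNA, or of RNA of the other cell types, in the Unc5b difference was not tested.

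Unc5d (chromosome 8, 28646717 to 29219671) went the other way and was highest in the Tbr2 lines. Its values were 7.47 and 6.92 in PomcGFP, 8.18, 7.86 and 8.19 in kiTbr2GFP and 8.04, 7.65 and 7.71 in tgTbr2GFP, against 5.92, 6.40 and 6.58 in NesGFP. The PomcGFP arrays fell between those of the Tbr2 lines and those of NesGFP without overlap. The value on the first NesGFP array was just above the 25th percentile of that array (5.92 against 5.90). Unc5d was higher than in NesGFP by 0.90 ± 0.22 (SE) in PomcGFP (adjusted p = 0.00749), by 1.78 ± 0.20 in kiTbr2GFP (adjusted p = 2.59e-05) and by 1.501 ± 0.20 in tgTbr2GFP (adjusted p = 0.000105). PomcGFP was lower than kiTbr2GFP by -0.88 ± 0.22 (adjusted p = 0.0466), a call that ended in 8 of 11 fits that left out an array (adjusted p = 0.0554 to 0.419, the highest without the second PomcGFP array). The difference of PomcGFP from tgTbr2GFP was -0.60 (95% interval -1.09 to -0.11, adjusted p = 0.327). Without the first PomcGFP array the call of PomcGFP against NesGFP also ended (0.63, adjusted p = 0.104).

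A second probe set of Unc5d gave smaller differences in the same directions. It read 7.13 and 7.17 in PomcGFP, 7.22 to 7.52 in kiTbr2GFP and 7.21 to 7.47 in tgTbr2GFP, against 6.86 to 6.99 in NesGFP. Both Tbr2 lines were higher than NesGFP on it as well, by 0.43 ± 0.12 (SE) in kiTbr2GFP (adjusted p = 0.0112) and by 0.39 ± 0.12 in tgTbr2GFP (adjusted p = 0.0181). PomcGFP did not pass on it against NesGFP (0.24, adjusted p = 0.164) or kiTbr2GFP (-0.18, adjusted p = 0.698). The choice of probe set by highest mean depended on the Tbr2 arrays. Over the PomcGFP and NesGFP arrays alone the second probe set had the higher mean. With these groups alone it therefore stood for the gene, and the call ended (0.24, adjusted p = 0.209). The calls of PomcGFP for Unc5d thus changed with the probe set.

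**Figure D2:**
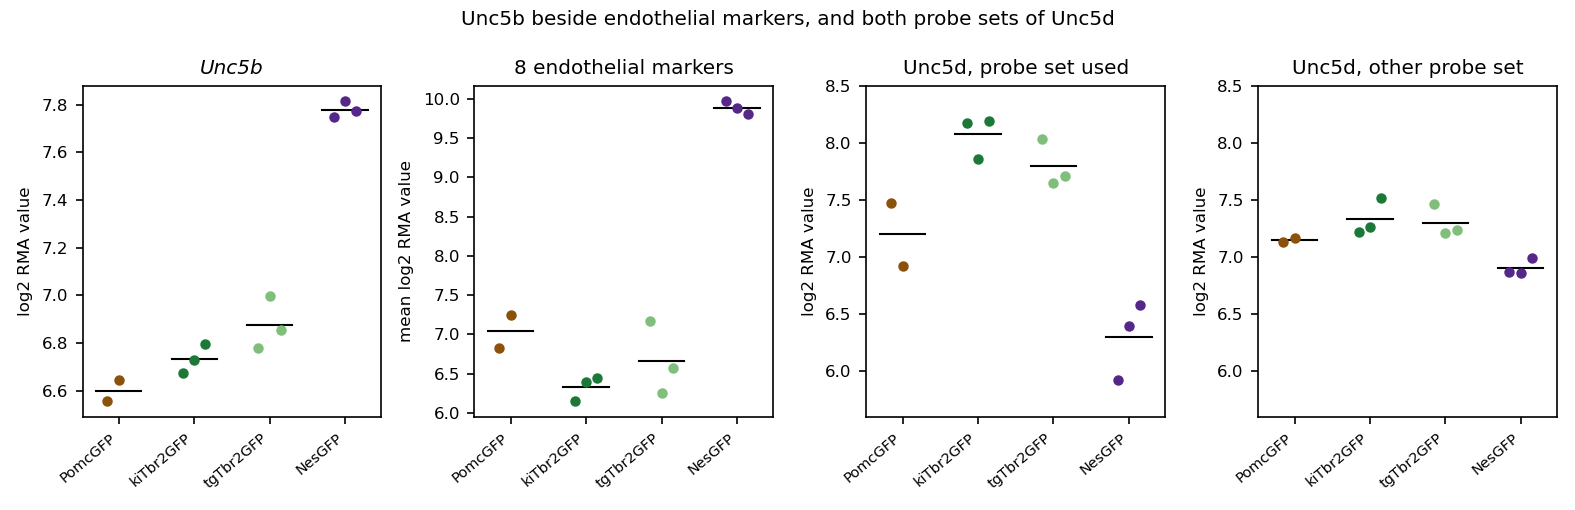
Log2 RMA value of Unc5b, the mean log2 value of 8 endothelial markers, and both probe sets of Unc5d (vertical axes, the last 2 panels on the same scale) on each array (points), by line, with the line mean as a bar. Unc5b and the endothelial markers are both highest on the 3 NesGFP arrays, and the other Unc5d probe set spans 6.86 to 7.52 where the one used spans 5.92 to 8.19.

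Unc5c (chromosome 3, 141465564 to 141834924) was lowest in kiTbr2GFP. It stood at 7.58 and 7.26 in PomcGFP, 6.59, 6.87 and 7.05 in kiTbr2GFP and 7.21, 6.99 and 7.21 in tgTbr2GFP, against 7.23, 7.63 and 7.57 in NesGFP. The PomcGFP and NesGFP arrays overlapped, and the kiTbr2GFP arrays lay below both. Unc5c was lower in kiTbr2GFP than in NesGFP by -0.64 ± 0.16 (SE; adjusted p = 0.00592). No other pair passed: PomcGFP differed from kiTbr2GFP by 0.59 (95% interval 0.20 to 0.97, adjusted p = 0.0940) and tgTbr2GFP from NesGFP by -0.34 (adjusted p = 0.104, 0.0398 without the first NesGFP array, and 0.0390 with arrays centred on their median). With array weights the difference of PomcGFP from kiTbr2GFP passed (adjusted p = 0.0127). The F test over the lines (adjusted p = 0.0209) did not pass without the first (adjusted p = 0.0707) or second kiTbr2GFP array (adjusted p = 0.0554).

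Unc5a (chromosome 13, 54945151 to 55006018) passed in no comparison. It was at 7.12 and 7.16 in PomcGFP and between 6.72 and 6.96 on the other 9 arrays, so both PomcGFP arrays were the highest. PomcGFP differed from kiTbr2GFP by 0.28 (95% interval 0.030 to 0.52, adjusted p = 0.262) and from NesGFP by 0.20 (-0.043 to 0.45, adjusted p = 0.175).

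Ntn1 (chromosome 11, 68209364 to 68386826), the gene of the secreted ligand netrin-1, also passed in no comparison. It stood at 7.24 and 7.28 in PomcGFP, 7.18, 7.17 and 7.18 in kiTbr2GFP and 6.85, 7.01 and 7.27 in tgTbr2GFP, against 7.17, 7.45 and 7.55 in NesGFP. The lines overlapped except that the PomcGFP arrays lay just above those of kiTbr2GFP. The largest difference was between tgTbr2GFP and NesGFP, at -0.35 (95% interval -0.64 to -0.056, adjusted p = 0.0552), and it passed without the first NesGFP array (adjusted p = 0.0184) or the third tgTbr2GFP array (adjusted p = 0.0208). Scaling moved this call too, with an adjusted p = 0.0361 under cyclic loess and 0.0167 with arrays centred on their median.

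Of the Slit receptors, Robo2 was higher in all 3 other lines than in NesGFP, and Robo1 in PomcGFP and tgTbr2GFP. Robo2 (chromosome 16, 73891976 to 75447443), the Slit receptor with the larger differences, was at 9.36 and 9.06 in PomcGFP, 9.47, 9.41 and 9.40 in kiTbr2GFP and 9.52, 9.99 and 9.72 in tgTbr2GFP, against 7.98, 7.94 and 7.96 in NesGFP. The NesGFP arrays lay within 0.1 of each other and below all others, and the tgTbr2GFP arrays were the highest. Robo2 was higher than in NesGFP by 1.25 ± 0.15 (SE) in PomcGFP (2.38-fold, adjusted p = 5.23e-05), by 1.47 ± 0.13 in kiTbr2GFP (2.77-fold, adjusted p = 4.49e-06) and by 1.78 ± 0.13 in tgTbr2GFP (3.44-fold, adjusted p = 1.47e-06). In order of level, tgTbr2GFP stood above kiTbr2GFP and PomcGFP, but neither step passed. PomcGFP differed from tgTbr2GFP by -0.53 (95% interval -0.85 to -0.21, adjusted p = 0.136) and kiTbr2GFP from tgTbr2GFP by -0.31 (-0.60 to -0.028, adjusted p = 0.454). With array weights both differences passed (adjusted p = 0.0101 and 0.0124).

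Robo1 (chromosome 16, 72027518 to 73047491) had another order, with PomcGFP highest. It stood at 8.92 and 8.78 in PomcGFP, 8.27, 8.21 and 8.17 in kiTbr2GFP and 8.45, 8.73 and 8.67 in tgTbr2GFP, against 7.78, 8.18 and 7.64 in NesGFP. The second NesGFP array overlapped kiTbr2GFP, and the other lines did not overlap each other. Robo1 was higher than in NesGFP by 0.98 ± 0.16 (SE) in PomcGFP (adjusted p = 0.000552) and by 0.75 ± 0.14 in tgTbr2GFP (adjusted p = 0.00134). In kiTbr2GFP the difference from NesGFP was 0.35 ± 0.14 (adjusted p = 0.0656), and it passed without the second NesGFP array (0.51, adjusted p = 0.00672) and under cyclic loess (0.50, adjusted p = 0.00844). PomcGFP was higher than kiTbr2GFP by 0.63 ± 0.16 (adjusted p = 0.0482), a call that ended in 8 of 11 fits without an array (adjusted p = 0.0506 to 0.325, the highest without the first PomcGFP array). The difference of kiTbr2GFP from tgTbr2GFP was -0.40 (95% interval -0.72 to -0.085, adjusted p = 0.322, and 0.00550 with array weights).

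The ligands of these receptors, Slit1 and Slit2, were higher in PomcGFP than in NesGFP by small differences. Their values were low to middling on the arrays. Among all probe sets of an array, Slit1 lay at percentiles 33.7 to 53.9 and Slit2 at 40.4 to 68.9. Slit1 (chromosome 19, 41597824 to 41747275) stood at 7.26 and 7.17 in PomcGFP, 6.44, 6.56 and 6.72 in kiTbr2GFP and 6.50, 6.57 and 7.12 in tgTbr2GFP, against 6.43, 6.83 and 6.53 in NesGFP. Both PomcGFP arrays lay above the other 9, and the third tgTbr2GFP array came close to them. The difference from NesGFP was 0.62 ± 0.19 (SE; adjusted p = 0.0236), and it did not pass without the first NesGFP array (adjusted p = 0.0668), the first PomcGFP array (adjusted p = 0.125) or the second (adjusted p = 0.0812). PomcGFP differed from kiTbr2GFP by 0.65 (95% interval 0.23 to 1.07, adjusted p = 0.0898, and 0.0354 without the third tgTbr2GFP array). This difference also passed with the compared groups alone (adjusted p = 0.0184) and with array weights (0.00816).

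Slit2 (chromosome 5, 47981291 to 48307735) differed between the 2 PomcGFP arrays by nearly as much as PomcGFP differed from NesGFP. It was at 7.86 and 7.22 in PomcGFP, 7.09, 7.41 and 7.33 in kiTbr2GFP and 7.15, 7.45 and 6.81 in tgTbr2GFP, against 6.71, 6.95 and 6.90 in NesGFP. The second PomcGFP array lay among the Tbr2 arrays, and all arrays of PomcGFP and kiTbr2GFP were above those of NesGFP. The difference of PomcGFP from NesGFP was 0.68 ± 0.21 (SE; adjusted p = 0.0248), and it was 0.37 without the first PomcGFP array (adjusted p = 0.285) and 0.61 without the first NesGFP array (adjusted p = 0.0663). The call also ended with array weights (adjusted p = 0.0609), with the compared groups alone (adjusted p = 0.0626) and with the replicate number as a block (adjusted p = 0.0564). The F test over the lines passed for neither ligand with the settings used here (adjusted p = 0.0571 for Slit1 and 0.0930 for Slit2). For Slit1 it passed under cyclic loess (adjusted p = 0.0493), array weights (0.0124), the replicate block (0.0348) and a robust prior with intensity trend (0.0490), and without the second NesGFP array (0.0374) or the third tgTbr2GFP array (0.0127). For Slit2 it passed without the second PomcGFP array (adjusted p = 0.0288).

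**Figure D3:**
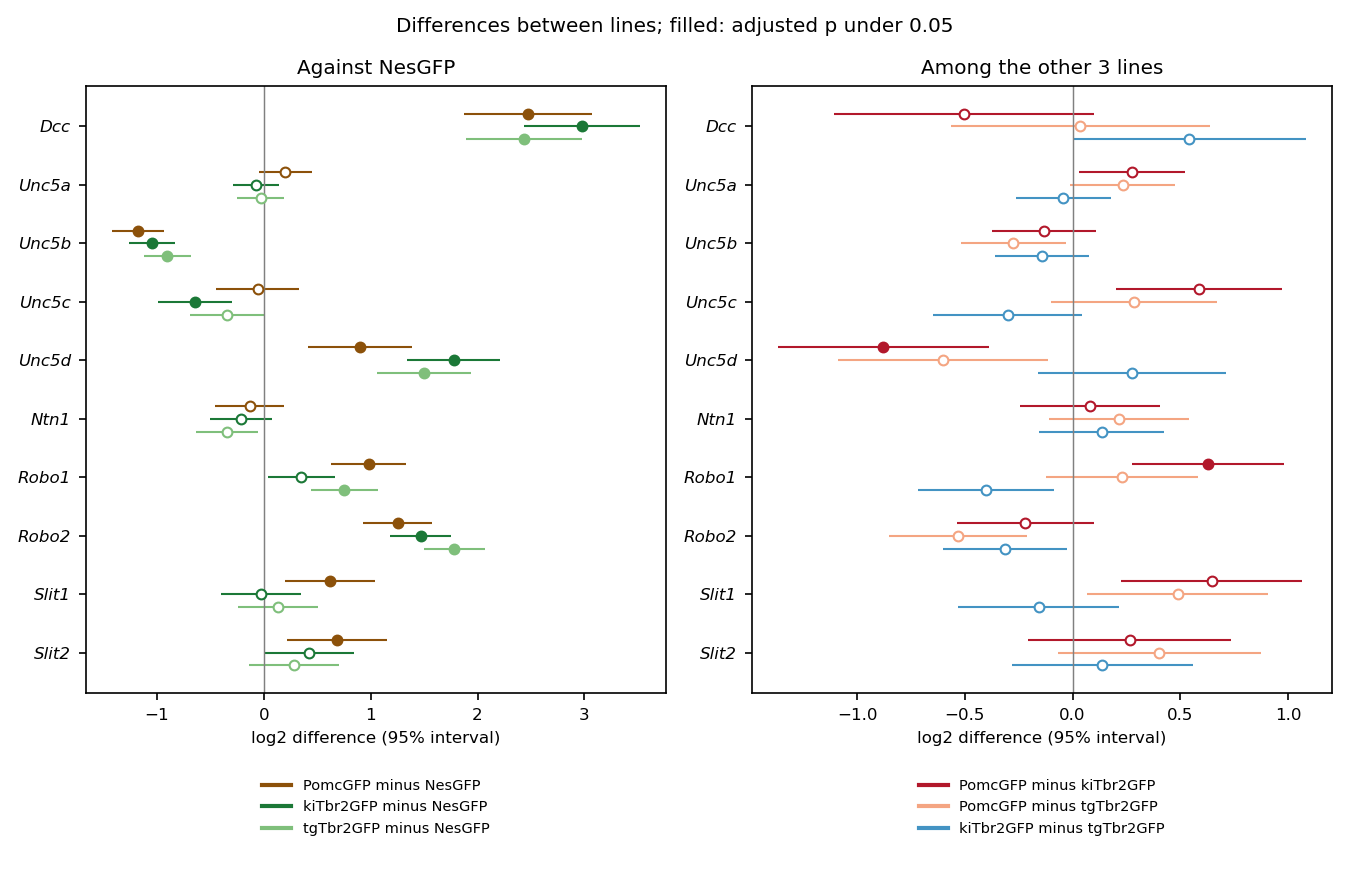
Log2 differences between lines (horizontal axis) with 95% intervals for the 10 genes (rows), against NesGFP on the left and among PomcGFP, kiTbr2GFP and tgTbr2GFP on the right, each first line minus second. Filled points passed at an adjusted p under 0.05. Against NesGFP, Dcc and Robo2 are to the right of 0 and Unc5b to the left in all 3 lines, and on the right only Unc5d and Robo1 hold a filled point.

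Markers of other cells than progenitors and granule neurons were set beside these patterns. Of 7 Cajal-Retzius markers, 5 were higher in kiTbr2GFP and 6 in tgTbr2GFP than in NesGFP, and none in PomcGFP. Their mean log2 value was 6.84 and 7.04 in PomcGFP, 7.92 to 8.002 in kiTbr2GFP and 8.11 to 8.84 in tgTbr2GFP, against 6.81 to 7.16 in NesGFP. PomcGFP overlapped NesGFP in these markers, and both Tbr2 lines lay above. The part of Cajal-Retzius RNA in the differences of Dcc, Unc5d and Robo2 was not tested. Of 8 microglia markers 4 were higher in PomcGFP than in NesGFP, with mean values of 7.56 on both PomcGFP arrays and 6.94 to 6.98 on NesGFP arrays, and their part in the differences of Slit1 and Slit2 was not tested.

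The genes whose arrays most resembled those of each receptor or ligand were taken by Pearson's r over the 11 arrays, among 15322 genes. The closest to Dcc were Dennd5b (r = 0.992), Hdac9 (0.992) and Smc6 (0.992), and the closest to Robo2 were Kcnh7 (0.984), Angpt1 (0.984) and Ago4 (0.983). High values were common for the genes in which NesGFP stood apart. Dcc had 774 genes with r over 0.9, Unc5b 1447 and Robo2 595. Nxn (0.991), Tmem176b (0.990) and Zfp36l1 (0.989) were closest to Unc5b. Map1b (0.973), Syt1 (0.960) and Mfsd6 (0.952), the first a microtubule protein of axons and the second a synaptic vesicle calcium sensor, were closest to Robo1, which had 51 such genes. Unc5d had 226, led by Xpo1 (0.966), Xrn2 (0.965) and Setbp1 (0.965). For the others no more than 20 genes passed 0.9. Their closest genes were Lor (0.951), Kcnk6 (0.910) and Pex26 (0.897) for Unc5a, Lratd2 (0.946), Prickle2 (0.945) and Ifngr2 (0.935) for Unc5c, and Rtn4rl2 (0.965), Hes7 (0.959) and Tbx2 (0.957) for Ntn1. For Slit1 they were Plk5 (0.936), Camk1g (0.922) and Slitrk5 (0.902), and for Slit2 Hnrnpul2 (0.909), Hps4 (0.885) and Tmem245 (0.885). These are descriptions over arrays that share a line, with no test.

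Robo3, Robo4 and Slit3 and the netrin genes Ntn3, Ntn4 and Ntn5 were also measured. They are named here as further family members, outside the rule for named genes. Robo3, known for its part in commissural axons, was higher than in NesGFP by 0.77 ± 0.11 (SE) in PomcGFP (adjusted p = 0.000215), by 0.45 ± 0.10 in kiTbr2GFP (adjusted p = 0.00269) and by 0.57 ± 0.10 in tgTbr2GFP (adjusted p = 0.000656). Its values were low, with means of 6.95 in PomcGFP, 6.64 in kiTbr2GFP, 6.75 in tgTbr2GFP and 6.19 in NesGFP. Every Robo3 value lay below the median of its array. Robo4, the Robo of endothelial cells, was lower by -0.64 ± 0.18 in kiTbr2GFP (adjusted p = 0.0116) and by -0.64 ± 0.18 in tgTbr2GFP (adjusted p = 0.0128, and 0.0544 without the first tgTbr2GFP array), along with the endothelial markers above. In PomcGFP its difference from NesGFP was -0.46 (adjusted p = 0.0865). The part of endothelial RNA in the Robo4 differences was not tested. Slit3 averaged 8.08 ± 0.08 in PomcGFP (SD, n = 2), 7.36 ± 0.09 in kiTbr2GFP, 7.58 ± 0.06 in tgTbr2GFP and 7.45 ± 0.02 in NesGFP (SD, n = 3 each). It was thus higher in PomcGFP than in kiTbr2GFP (0.72, adjusted p = 0.00240), tgTbr2GFP (0.50, adjusted p = 0.0495) and NesGFP (0.63, adjusted p = 0.000769), but the call against tgTbr2GFP ended in 10 of 11 fits without an array (adjusted p = 0.0501 to 0.353). Ntn3, Ntn4 and Ntn5 passed in no pair of lines (adjusted p of at least 0.0509, for Ntn4 in PomcGFP against NesGFP).

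Partners of netrin receptors went both ways. Of 20 tested genes of netrin signalling beyond the 10, 3 were higher and 3 lower in PomcGFP than in NesGFP, 5 and 6 in kiTbr2GFP, and 3 and 5 in tgTbr2GFP, with medians of -0.010, -0.019 and 0.032 on the log2 scale. The shares over all genes, given above for these comparisons, were 39.9%, 45.2% and 41.6% in either direction. Flrt3, a membrane protein that binds UNC5 receptors, was at 8.69 ± 0.44 in PomcGFP (SD, n = 2), 8.87 ± 0.13 in kiTbr2GFP and 9.13 ± 0.21 in tgTbr2GFP, against 7.48 ± 0.21 in NesGFP (SD, n = 3 each), and passed as higher in all 3 (adjusted p = 0.000562, 6.82e-05 and 2.24e-05). Myo10, a myosin known to carry DCC in filopodia, was lower in all 3, by -1.76, -1.54 and -1.55. Dag1 (dystroglycan), which organizes guidance cues in the matrix, was lower as well, by -1.36, -1.18 and -1.33. The vessel and astrocyte markers were lower in the same comparisons. So were most neural stem cell, oligodendrocyte and oligodendrocyte precursor markers. The part of RNA of these cell types in the differences of Myo10 and Dag1 was not tested. Trim9, a ubiquitin ligase that binds DCC, was higher in PomcGFP than in kiTbr2GFP by 1.25 ± 0.18 (SE; adjusted p = 0.00206). It was lower in kiTbr2GFP than in NesGFP by -1.23 ± 0.16 (adjusted p = 9.33e-05). It was also lower in tgTbr2GFP than in NesGFP, by -0.50 ± 0.16 (adjusted p = 0.0294), but this call ended in 4 of 11 fits without an array (adjusted p = 0.0699 to 0.124), under cyclic loess (0.0913) and with the compared groups alone (0.0682). Between PomcGFP and either Tbr2 line only Trim9 and Dscam, a further netrin receptor named after its value was seen (0.99, adjusted p = 0.00341), passed, both against kiTbr2GFP.

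The list of Slit signalling beyond the 10 genes had 16 tested genes, with Slit3, Robo3 and Robo4 among them. Of these, 6 were higher and 4 lower in PomcGFP than in NesGFP, 4 and 6 in kiTbr2GFP, and 4 and 4 in tgTbr2GFP. Over all genes 39.9%, 45.2% and 41.6% were called in either direction. The medians of the list were 0.12, -0.19 and -0.17, against 0.0050, -0.012 and -0.030 for all genes. Nell2, a secreted ligand of Robo3, was at 10.40 ± 0.24 in PomcGFP (SD, n = 2), 8.75 ± 0.09 in kiTbr2GFP, 9.33 ± 0.24 in tgTbr2GFP and 9.53 ± 0.24 in NesGFP (SD, n = 3 each). It was higher in PomcGFP than in kiTbr2GFP (1.66, adjusted p = 0.000311), tgTbr2GFP (1.07, adjusted p = 0.0140) and NesGFP (0.88, adjusted p = 0.00233), and lower in kiTbr2GFP than in NesGFP (-0.78, adjusted p = 0.00193). Against tgTbr2GFP the call ended in 4 of 11 fits without an array (adjusted p = 0.0577 to 0.183). Sos1, an exchange factor recruited by Robo in flies and vertebrates, was higher than in NesGFP in all 3 lines, by 1.33, 1.42 and 1.32. Sdc3, a heparan sulphate proteoglycan whose fly relative is a Slit co-receptor, was lower in all 3, by -1.004, -1.11 and -1.18. Arhgap39, relative of the fly Robo-binding protein Vilse, was lower by -0.52, -0.87 and -0.80, and its call in PomcGFP ended without the first PomcGFP array (-0.37, adjusted p = 0.140).

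Signalling proteins inside the cell that both receptor families use were compared with NesGFP in the same way. Of 21 tested, 4 were higher and 11 lower in PomcGFP, 2 and 13 in kiTbr2GFP, and 2 and 12 in tgTbr2GFP. Over all genes 15.9%, 18.2% and 15.8% were higher and 24.0%, 27.0% and 25.8% lower. The medians of the list were -0.42, -0.41 and -0.45, against 0.0050, -0.012 and -0.030 for all genes, and nothing particular to the list was tested. Many of these genes act in all cell types, and the part of the vessel and glial RNA was not tested. Dock1, a Rac exchange factor downstream of DCC, was at 7.34 ± 0.08 in PomcGFP (SD, n = 2), 7.49 ± 0.09 in kiTbr2GFP and 7.75 ± 0.03 in tgTbr2GFP, against 8.98 ± 0.15 in NesGFP (SD, n = 3 each). Ablim1, an actin-binding protein whose worm relative acts in netrin guidance, was lower by -1.31, -1.56 and -1.33. Pak3, a neuronal kinase driven by Rac and Cdc42, was among the higher ones, by 2.60 ± 0.29 (SE) in PomcGFP, 2.15 ± 0.26 in kiTbr2GFP and 2.10 ± 0.26 in tgTbr2GFP (adjusted p = 4.39e-05, 5.15e-05 and 7.01e-05). Cap2, an actin regulator, was higher in PomcGFP than in kiTbr2GFP (1.23, adjusted p = 0.000800), tgTbr2GFP (0.78, adjusted p = 0.0323) and NesGFP (0.49, adjusted p = 0.0267), and its calls ended in 7 of 11 fits against tgTbr2GFP (adjusted p = 0.0518 to 0.347) and 2 of 11 against NesGFP (adjusted p = 0.0631 without the third NesGFP array and 0.271 without the first PomcGFP array; 0.0800 with arrays centred on their median).

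**Figure D4:**
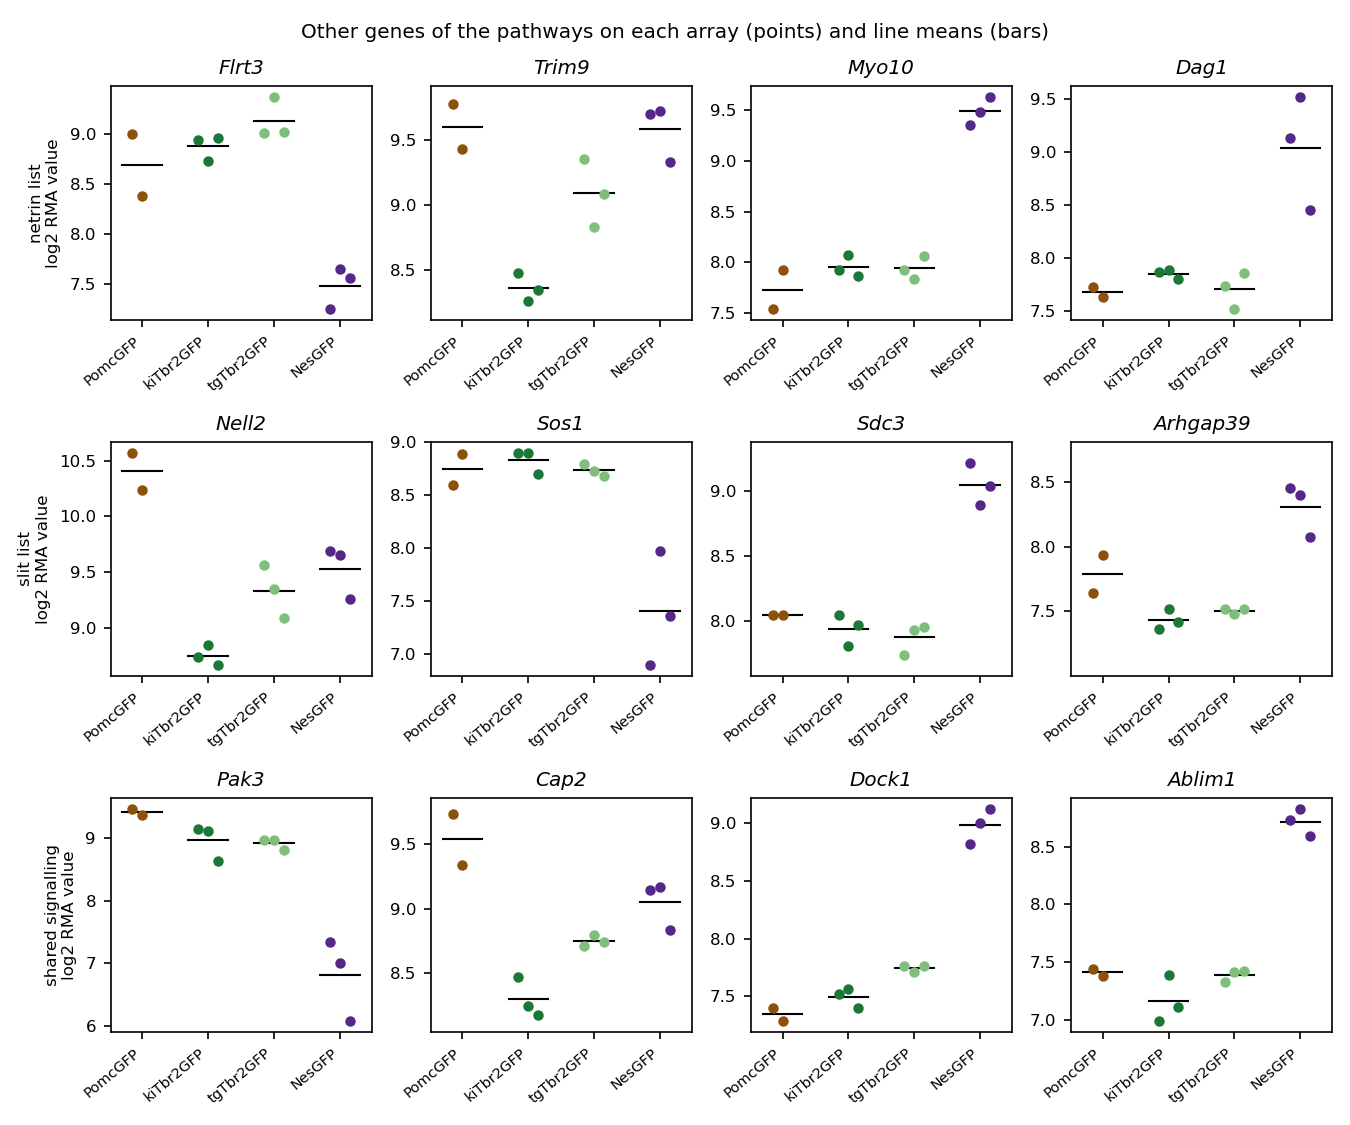
Log2 RMA value (vertical axis) of 12 other genes of netrin signalling (top row), Slit signalling (middle) and shared signalling (bottom) on each array (points), by line, with the line mean as a bar. Flrt3, Sos1 and Pak3 are lower on the NesGFP arrays than on all others, Myo10, Dag1, Sdc3, Arhgap39, Dock1 and Ablim1 are higher there, and Nell2 and Cap2 are highest in PomcGFP.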

How the data were processed

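The authors deposited log2 values, 1 per probe set and array, and RMA and oligo are the tools that the submitters' processing notes list. Their versions, the genome build and the annotation are not given in the sources used here. That RMA values are log2 was inferred from the method and their range. Of 28858 probe sets 21789 had 1 gene symbol in the platform annotation, 1621 had several and 5448 had none listed. Those above the 25th percentile of the array on at least 2 arrays were kept (18097), and the one with the highest mean stood for each of 16527 genes. All 10 genes passed this filter on all 11 arrays.

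A joint fit of the 4 line means, using limma 3.58.1 under R 4.3.3 (7 residual and 4.22 prior degrees of freedom), gave 6 pairwise differences, first line minus second, and an F test, two-sided and adjusted over 16527 genes. Intervals are 95% intervals of single differences, not adjusted. The number of arrays limits the precision. The fit was also run on simulated data. Those values were independent and held no effect shared by an array, so the run cannot speak to such effects here. The members and lists were chosen with earlier results of these data known. For each of the 10 genes the 3 most correlated genes are named. Of 61 listed pathway genes 56 were tested, and those named had, within their list, the 2 largest positive or negative differences among genes that passed in any pair. Alternatives are in the closing section. Figures used Python 3.11.15 and matplotlib 3.10.9.

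Same-numbered arrays of different lines did not deviate together in every pair, and numbers were not taken as pairs. Whether same-numbered arrays share a batch was not tested.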

Additional observations from a re-analysis of the deposited data

How the results depend on the processing

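Counts here are how many of the 10 genes passed. Between PomcGFP and kiTbr2GFP (2 as reported), the count was 0 with no filter on low values or with arrays centred on their median, 1 with the mean of probe sets, cyclic loess, an intensity trend with a robust prior or the other Unc5d probe set (added after seeing the data), 4 with array weights or the compared groups alone, and 0 to 2 without single arrays. With array weights 3 passed between PomcGFP and tgTbr2GFP (Unc5b, Robo2 and Slit1) and 2 between kiTbr2GFP and tgTbr2GFP (Robo1 and Robo2), where 0 were reported. Over all genes, array weights raised the calls to 2065, 1063 and 1393 in these 3 comparisons, against 807, 226 and 185, and fitting the compared groups alone gave 1284 and 150 in the first and second. Without single arrays those calls spanned 364 to 1044, 38 to 335 and 68 to 260. Between PomcGFP and NesGFP 4 to 7 of the 10 genes passed without single arrays, with 4 when the first PomcGFP array was left out. The other 125 of 146 counts stayed within 1.5 times. The causes were not tested.

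With the replicate number as a block, 0 of the 10 genes passed between PomcGFP and kiTbr2GFP. The block also ended the call of Slit2 between PomcGFP and NesGFP (adjusted p = 0.0564), as did array weights (0.0609) and the compared groups alone (0.0626), and the F test of Slit1 passed (0.0348). With the block Ntn1 passed between tgTbr2GFP and NesGFP (adjusted p = 0.0294). Correlations of same-numbered arrays, taken as deviations from their line means, ran from -0.11 to 0.26, and from 0.13 to 0.26 for the third arrays. Differently numbered arrays were not set beside them, so these values cannot decide whether numbers mark pairs.

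Of 2437 alternative values of single genes 2299 kept direction and side of the threshold, 93 no longer passed, 28 newly passed and 17 changed sign. Those that changed sign were small and passed nowhere. Dcc in PomcGFP minus tgTbr2GFP was -0.059 with array weights, -0.094 with the replicate block and -0.088 to 0.16 without single arrays. Unc5c in PomcGFP minus NesGFP was 0.0078 with the replicate block and -0.22 to 0.11 without single arrays. Unc5a in kiTbr2GFP minus tgTbr2GFP was 0.049 with array weights and -0.080 to 0.030 without single arrays. The remaining ranges without single arrays were -0.054 to 0.58 for Slit2 in PomcGFP minus kiTbr2GFP, -0.11 to 0.00080 for Unc5a and -0.11 to 0.090 for Slit1 in kiTbr2GFP minus NesGFP, -0.050 to 0.0057 for Unc5a and -0.066 to 0.25 for Slit1 in tgTbr2GFP minus NesGFP, and -0.27 to 0.038 for Slit1 and -0.023 to 0.29 for Slit2 in kiTbr2GFP minus tgTbr2GFP. The number of arrays, 2 or 3 a line, limits the precision of every difference.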
